A study of Mus musculus with 20 samples.

Results

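Toll-like receptors sense molecules of microbes and of damaged cells. The 10 genes described here are the receptors Tlr1, Tlr2, Tlr3, Tlr4, Tlr6, Tlr7, Tlr9 and Tlr13, the co-receptor Cd14 and the adaptor Myd88, chosen by name from the 52783 mouse genes of the count table. Tlr1, Tlr2, Tlr4 and Tlr6 sit in the outer membrane of the cell. Tlr2 pairs with Tlr1 or Tlr6 to bind bacterial lipopeptides, and Tlr4 binds lipopolysaccharide that Cd14 hands over. Tlr3, Tlr7, Tlr9 and Tlr13 sit in endosomes and bind double-stranded RNA, single-stranded RNA, unmethylated CpG DNA and bacterial ribosomal RNA, respectively. Myd88 carries the signal of these receptors, except that of Tlr3, to NF-kB and interferon regulatory factors. Macrophages, monocytes, neutrophils, dendritic cells and B cells use these genes in different combinations, and epithelial cells and fibroblasts use some of them.

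The RNA came from mammary tumours of young adult female BALB/cJ mice, grown from 1000000 cells of the line 66cl4 or 67NR injected into the mammary fat pad. Both lines belong to the 4T1 family of mouse breast cancer and grow in hosts with an intact immune system. Tumours of 66cl4 metastasise and those of 67NR do not, and since each kind of tumour comes from 1 line, the metastatic behaviour and any other property of the line cannot be told apart. Each of 5 mice per tumour gave 1 library of CD45+ cells, which are leukocytes, and 1 library of CD45- cells, which hold tumour and stromal cells, so that the 20 libraries form 4 groups of 5. The mice received no treatment.

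Total counts per library ranged from 12960000 to 28080314. The cell type recorded for 66cl4 animals 5 and 6 went against the sample titles, and the titles were followed. The level of Ptprc, the gene of CD45, in the libraries titled CD45- was 0.0518 to 2.98% of that in the CD45+ library of the same animal, animals 5 and 6 included. Summed over marker lists, CD45+ cells of 66cl4 tumours had neutrophil levels of 44190 to 125311 normalised counts against 7185 to 52320 in 67NR tumours, and 5 of 7 neutrophil markers were higher by the test used below and none lower. Macrophage markers summed to 49457 to 76411 against 76727 to 117539, with 1 of 8 lower, and monocyte markers to 26390 to 44338 against 30471 to 50224, with 2 of 5 lower. Some markers of both lists had higher means in 66cl4 without being called. Of the macrophage markers these were Mertk (546 and 299), Cd68 (8166 and 6568) and Mrc1 (21861 and 21745). Of the monocyte markers they were F13a1 (11279 and 6972) and Chil3 (393 and 271). All other markers of the 2 lists had lower means. Conventional dendritic cell markers summed to 1269 to 2396 against 2435 to 3791 with 2 of 6 lower, plasmacytoid dendritic cell markers to 3099 to 4749 against 5224 to 6822 with 1 of 5 lower, and B cell markers to 147 to 15112 against 362 to 2903 with none called. The NK cell marker Klra8 was at 0 in every library of 3 of the groups and the epithelial marker Krt14 in CD45+ cells of 67NR tumours, and no other marker used here was at 0 throughout a group. In such bulk samples, fewer cells of a type and less RNA per cell cannot be told apart.

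Tlr1 and Tlr6 lie side by side on mouse chromosome 5 and their transcripts are alike in part, which matters for how their reads are counted. Of the 31-base words in the longest annotated Tlr1 transcript, 20.1% also occur in another gene, which is Tlr6, and of those of Tlr6 16.9% occur in another gene, nearly all of them in Tlr1. The transcripts of the other 8 genes share no such word with any other gene. The longest run shared by both genes is 229 bases of coding sequence in 1 exon of each. On the minus strand of GRCm38 it lies at chr5:64925537-64925765 in Tlr1 and at chr5:64953828-64954056 in Tlr6. It is shown because a read from it cannot be assigned to either gene by sequence alone.
Tlr1 and Tlr6: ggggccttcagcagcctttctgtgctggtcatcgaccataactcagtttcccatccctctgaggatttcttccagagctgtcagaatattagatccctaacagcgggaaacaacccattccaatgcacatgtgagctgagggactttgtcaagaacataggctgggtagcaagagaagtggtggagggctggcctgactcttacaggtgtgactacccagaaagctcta

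The 250 bases before the start sites were searched on both strands for 3 motifs, which were GAGGAAGT, bound by the myeloid factor PU.1, an interferon response motif of GAAA, 2 bases of any kind and GAAA, and an NF-kB motif of GGG, 2 bases of any kind and TTTCC. RefSeq windows of build GRCm38.p6 were matched for 7 of the 10 genes, in 9 windows, and none was matched for Tlr4, Tlr7 and Cd14. Matches occurred in windows of Tlr1, Tlr6, Tlr3 and Myd88, and no motif was found in those of Tlr2, Tlr9 and Tlr13 or in a second window of Tlr1 and of Tlr6. Of all 32851 windows, 2.44% held the PU.1 motif, 2.98% the interferon response motif and 1.41% the NF-kB motif. The share of windows with any of the 3 motifs was not computed. Stretches of 30 bases are shown for every gene with a match, whatever its level. A match is a string of letters and was not tested for binding. Capitals mark the match, and in Tlr6 there were 2 overlapping matches of the interferon motif on the opposite strand. All 4 stretches are on the minus strand, at chr5:64933563-64933592 (Tlr1), chr5:64959260-64959289 (Tlr6), chr8:45410572-45410601 (Tlr3) and chr9:119340039-119340068 (Myd88).
Tlr1, PU.1: attaaatgttgGAGGAAGTaggagcttgaa
Tlr6, interferon response: ctattctTTTCTCTTTCACTTTCtgtttga
Tlr3, NF-kB: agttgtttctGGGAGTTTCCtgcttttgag
Myd88, interferon response: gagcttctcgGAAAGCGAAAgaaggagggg

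Levels are given as normalised counts, which are estimated counts divided by the size factor of the library. They compare a gene between libraries and not one gene with another. Values of single libraries stand in the order of animals 3, 4, 5, 6 and 7 for 66cl4 and of animals 1, 4, 5, 6 and 7 for 67NR tumours. The quasi-likelihood test of edgeR was run over all genes tested, and a call needed an adjusted p under 0.05 together with an absolute log2 fold change over 1. Fold changes between tumours are 66cl4 minus 67NR on the log2 scale, with the standard error (SE) of the fit. All 10 genes passed the filter on low counts in every comparison.

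**Figure D1:**
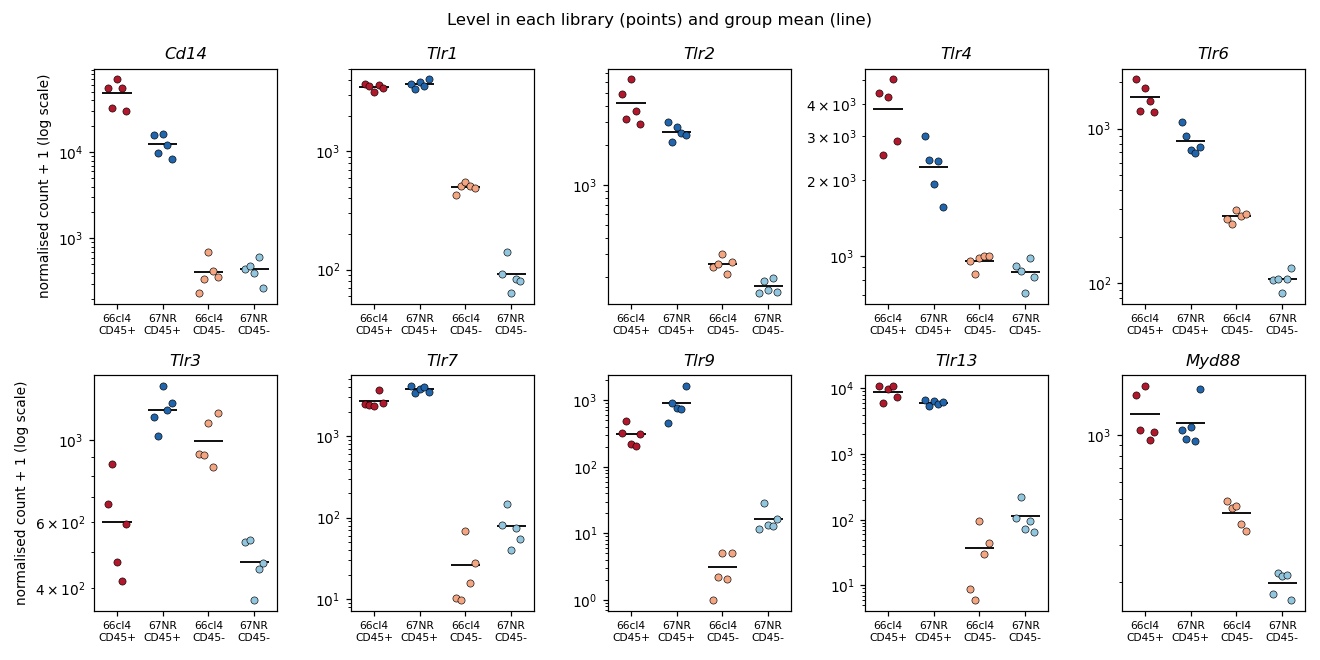
Normalised counts plus 1 (log axis) of the 10 genes in the 20 libraries, with 5 libraries (points, in the order of animal numbers) and the mean (line) for each tumour and gate. Cd14 lay at 30045 to 69869 in the CD45+ cells of 66cl4 tumours, above all other libraries, and Tlr3 was the gene whose CD45+ and CD45- levels changed order between the tumours.

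Between the CD45+ cells of the tumours, Cd14 was higher and Tlr9 was lower in 66cl4, and no other of the 10 genes was called. The study had picked Cd14 and Tlr6 from these same CD45+ libraries, so their direction there is not independent evidence. That is 1 of 10 genes higher, against 5.01% of the 14676 genes tested, and 1 of 10 lower, against 6.82%; 11.8% of all genes were called in either direction. The libraries of the tumours did not overlap for 3 of the 10 genes, Cd14, Tlr6 and Tlr3, against 15.1% of all genes. Over the 10 genes the median log2 fold change was 0.36, and over all genes 0.01. In CD45- cells 6 of the 10 genes were called, with Tlr1, Tlr6, Tlr3 and Myd88 higher and Tlr7 and Tlr9 lower in 66cl4. There 13.2% of 14844 genes were higher and 18.9% lower, together 32.2%, and the median log2 fold change was 0.40 over the 10 genes and -0.01 over all genes. The CD45- libraries did not overlap for 6 of the 10 genes, against 52.9% of all genes, so a separation of the libraries was common in this gate.

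Cd14 had the highest level of the 10 genes per transcript length in every group mean, and it had the largest tumour difference in CD45+ cells. In 66cl4 tumours its CD45+ normalised counts were 55442, 32305, 69869, 55534 and 30045. Those of 67NR tumours were 15699, 9820, 16411, 12173 and 8314. The lowest 66cl4 library lay above the highest 67NR library. The means were 48639 and 12483, a log2 fold change of 1.96 (SE 0.279, adjusted p = 0.000653, edgeR), and the exact permutation test gave p = 0.00794 (n = 5 and 5, two-sided), the smallest that 5 against 5 libraries allow. It was 1.65 without 66cl4 animals 5 and 6 (adjusted p = 0.00873).

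Cd14 is made by monocytes, macrophages and neutrophils, and markers of these cells differed between the tumours as given above, not all in the same direction. As a share of the summed macrophage markers of the same library, Cd14 was 39.3 to 93.6% in 66cl4 against 7.07 to 20.9% in 67NR. These shares could not overlap, since Cd14 was higher and the macrophage sum lower in each 66cl4 library than in any of 67NR. The lack of overlap therefore adds nothing to that of Cd14 itself. In the order of animals, neutrophil sums were 118436, 61673, 125311, 113211 and 44190 in 66cl4 and 52320, 27342, 16907, 15099 and 7185 in 67NR tumours. Within 66cl4, animals 3, 5 and 6 had the highest neutrophil sums and the highest Cd14 levels, and animal 7 the lowest of both. Within 67NR, animal 7 was lowest in both, while animal 1 had the highest sum and animal 5 the highest Cd14 level. The neutrophil sums overlapped between tumours in 1 pair of animals. The CD45+ library of 66cl4 animal 7 had a neutrophil sum of 44190 and a Cd14 level of 30045, and that of 67NR animal 1 had a neutrophil sum of 52320 and a Cd14 level of 15699. The part of neutrophils in the Cd14 difference was not tested.

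In CD45- cells Cd14 was not called. Its normalised counts were 232, 335, 699, 420 and 355 in 66cl4 and 447, 475, 395, 616 and 263 in 67NR tumours. The groups overlapped across nearly their whole range, and the log2 fold change was -0.07 (SE 0.284, adjusted p = 0.841). Its tumour effect was larger in CD45+ than in CD45- cells by 2.05 (SE 0.413, adjusted p = 0.00055) in the interaction of tumour and gate over the 20 libraries. In this test a call needed only an adjusted p under 0.05, with no fold threshold, and 43.1% of 16453 genes were called. Within this test 2 of the 10 genes, Cd14 and Tlr13, had a higher tumour effect in CD45+ cells, against 21.9% of all genes, and 3, Tlr1, Tlr3 and Myd88, had a lower one, against 21.2%.

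Among the receptors of the outer membrane, Tlr1 and Tlr6 were higher in CD45- cells of 66cl4 tumours, and none of the 4 was called in CD45+ cells. In CD45- cells Tlr1, the partner of Tlr2 for triacylated lipopeptides, had normalised counts of 430, 509, 554, 508 and 490 in 66cl4 tumours. In 67NR tumours they were 91.3, 140, 62.3, 82.8 and 78.7. Every 66cl4 library lay far above the highest 67NR library, with a log2 fold change of 2.48 (SE 0.174, adjusted p = 2.26e-08), the largest rise of the 10 genes in this gate.

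In CD45+ cells Tlr1 was not called. Its normalised counts there were 3739, 3551, 3197, 3658 and 3451 in 66cl4 and 3737, 3394, 3834, 3584 and 4063 in 67NR tumours. The groups overlapped, with a log2 fold change of -0.07 (SE 0.0965, adjusted p = 0.672). The order of its group levels was therefore 67NR CD45+ and 66cl4 CD45+, which overlapped, then 66cl4 CD45- and 67NR CD45-, each apart from its neighbours. The tumour effect was lower in CD45+ than in CD45- cells by a log2 value of -2.54 (SE 0.201, adjusted p = 5.69e-09).

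Tlr6, the partner of Tlr2 for diacylated lipopeptides, had CD45- normalised counts of 259, 242, 296, 270 and 280 in 66cl4 and of 104, 106, 85.2, 106 and 124 in 67NR tumours. These groups did not overlap, and the log2 fold change was 1.39 (SE 0.118, adjusted p = 1.55e-07). In CD45+ cells the values were 2083, 1293, 1838, 1502 and 1276 against 1096, 891, 725, 689 and 758. Here too every 66cl4 library was above every 67NR library (exact permutation p = 0.00794, n = 5 and 5). The CD45+ log2 fold change of 0.95 (SE 0.18, adjusted p = 0.00342) stayed under the fold threshold, and it passed with 1.02 when 66cl4 animal 4 or 7 was left out and with 1.06 without 67NR animal 1. The interaction for Tlr6 was -0.43 (SE 0.202, adjusted p = 0.0905).

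Because Tlr1 and Tlr6 share sequence, their levels were also summed, an alternative chosen after the shared sequence was seen. The sum in CD45- cells was 767 ± 57.5 (SD, n = 5) in 66cl4 and 196 ± 34.9 in 67NR tumours, a ratio of 3.92 without overlap (exact permutation p = 0.00794). In CD45+ cells the sum was 5118 ± 428 and 4554 ± 274, a ratio of 1.12 with overlapping libraries (exact permutation p = 0.0317). The sum does not depend on how reads were divided between the 2 genes.

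Tlr2, the receptor both of them pair with, was not called in either gate. Its CD45+ normalised counts were 4857, 3166, 6321, 3655 and 2900 in 66cl4 and 2994, 2124, 2736, 2456 and 2397 in 67NR tumours. Only the lowest 66cl4 library lay within the range of 67NR. Tlr2 had a log2 fold change of 0.72 (SE 0.204, adjusted p = 0.0245), and became 0.52 without 66cl4 animals 5 and 6 (adjusted p = 0.0905). In CD45- cells Tlr2 was at 212 to 300 against 151 to 197, without overlap, with a log2 fold change of 0.61 (SE 0.119, adjusted p = 0.000464) that is under the fold threshold. The interaction for Tlr2 was 0.13 (SE 0.238, adjusted p = 0.688).

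Tlr4, the lipopolysaccharide receptor, had CD45+ normalised counts of 4435, 2529, 4264, 5035 and 2855 in 66cl4 and of 2984, 2409, 1924, 2377 and 1558 in 67NR tumours. Animals 3, 5 and 6 of 66cl4 lay above all 67NR libraries and the other 2 within their range. This gave a log2 fold change of 0.77 (SE 0.226, adjusted p = 0.0307), under the fold threshold, and without animals 5 and 6 it was 0.54 (adjusted p = 0.159). In CD45- cells Tlr4 was at 844 to 997 and 711 to 980, overlapping, with a log2 fold change of 0.19 (SE 0.0917, adjusted p = 0.0891). The interaction was 0.60 (SE 0.245, adjusted p = 0.054).

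Of the endosomal receptors, Tlr3 differed between the tumours in opposite directions in the 2 gates, and Tlr9 was lower in 66cl4 in both. Tlr3, the receptor for double-stranded RNA, had CD45- normalised counts of 914, 910, 1110, 843 and 1179 in 66cl4 and of 529, 537, 370, 448 and 465 in 67NR tumours. All 66cl4 libraries were higher, with a log2 fold change of 1.11 (SE 0.122, adjusted p = 2.18e-06). In CD45+ cells the values were 673, 858, 468, 416 and 592 in 66cl4 and 1150, 1022, 1394, 1201 and 1254 in 67NR tumours. All 66cl4 libraries were here below all 67NR libraries (exact permutation p = 0.00794, n = 5 and 5). The CD45+ log2 fold change was -0.99 (SE 0.185, adjusted p = 0.00316), just short of the fold threshold. It was -1.01 without the filter, -1.04 with total counts as library sizes and -1.05, -1.15, -1.01 and -1.04 without 66cl4 animals 3 and 4 and 67NR animals 1 and 4, respectively, which are calls. Without 66cl4 animals 5 and 6 it was -0.76 (adjusted p = 0.0136). Per macrophage marker sum, CD45+ Tlr3 was 0.626 to 1.73% in 66cl4 against 1.07 to 1.78% in 67NR tumours, with overlap. Of the conventional dendritic cell markers, 2 of 6, Xcr1 and Batf3, were lower in the same libraries and none higher. The part of these cells in the Tlr3 difference was not tested.

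The interaction for Tlr3 was -2.09 (SE 0.23, adjusted p = 5.28e-07). The order of its group means was 67NR CD45+ with 1204, 66cl4 CD45- with 991, 66cl4 CD45+ with 601 and 67NR CD45- with 470. Neighbouring groups in this order overlapped in every case, while 67NR CD45+ did not overlap 66cl4 CD45+. Tlr3 was the only one of the 10 genes with a mean in CD45- above that in CD45+ cells of a tumour, in 66cl4.

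Tlr9, the receptor for unmethylated CpG DNA, had CD45+ normalised counts of 323, 480, 220, 206 and 313 in 66cl4 and of 450, 906, 757, 742 and 1620 in 67NR tumours. Only 66cl4 animal 4, the highest of its group, and 67NR animal 1, the lowest of its group, overlapped. The log2 fold change was -1.51 (SE 0.321, adjusted p = 0.0073, edgeR), and the call was lost without 66cl4 animals 5 and 6 (-1.25, adjusted p = 0.0522). In mice this receptor is used by B cells, plasmacytoid and conventional dendritic cells and macrophages, whose markers are given above. The 66cl4 animals 4, 6 and 7 had B cell sums of 15112, 9482 and 5714, above the 2903 of the highest 67NR library. The sums of both dendritic cell lists and of the macrophage list were lower in each 66cl4 library than in any of 67NR. The largest means in the plasmacytoid sum were those of Tcf4, with 1709 and 2024. Tcf4 had higher means in CD45- cells, with 4619 and 3492, so the sum does not measure these cells alone. Siglech, Ccr9 and Klk1 overlapped between the tumours and were not called, and only Bst2 was called lower. Per macrophage marker sum, Tlr9 was 0.294 to 0.97% against 0.586 to 1.38%, with overlap. The part of these cells in the Tlr9 difference was not tested.

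Tlr9 was scarce in CD45- cells, with normalised counts of 0, 1.25, 4.16, 1.06 and 3.99 in 66cl4 and 10.5, 27.8, 12.3, 11.7 and 15.3 in 67NR tumours. The 66cl4 values lie near or below 3 counts, the number that a count of 0 allows, and the groups did not overlap. The log2 fold change was -2.75 (SE 0.518, adjusted p = 0.000324). These levels were 0 to 1.89% of the CD45+ level of the same animal in 66cl4 and 0.947 to 3.06% in 67NR tumours. The same percentage of the summed macrophage markers was 0.245 to 2.55% and 1.06 to 5.68%. The part of leukocytes left in the CD45- libraries was not tested. The interaction for Tlr9 was 1.23 (SE 0.692, adjusted p = 0.159).

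Tlr7, the receptor for single-stranded RNA, was not called in CD45+ cells, where its normalised counts were 2485, 2440, 2323, 3724 and 2547 in 66cl4 and 4121, 3378, 3824, 4080 and 3535 in 67NR tumours. The single 66cl4 library within the 67NR range was that of animal 6. Tlr7 had a log2 fold change of -0.47 (SE 0.145, adjusted p = 0.0353). Per macrophage marker sum, Tlr7 was 3.11 to 6.11% and 3.01 to 5.37%, overlapping.

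In CD45- cells Tlr7 was lower in 66cl4, with 9.29, 8.73, 66.6, 14.9 and 27 against 79.9, 147, 38.6, 74.2 and 53.2 in 67NR tumours. Animal 5 of 66cl4 stood within the 67NR range and the other 4 below it. The log2 fold change was -1.59 (SE 0.55, adjusted p = 0.0235). The call was lost without 66cl4 animal 6 (adjusted p = 0.0586), 67NR animal 1 (0.0514) or 67NR animal 4 (0.0588), and the log2 fold change was -2.35 (adjusted p = 0.00235) without 66cl4 animals 5 and 6. The interaction for Tlr7 was 1.12 (SE 0.544, adjusted p = 0.103). In the order of animals, CD45- macrophage markers summed to 157, 267, 1901, 330 and 856 in 66cl4 tumours. In 67NR tumours the sums were 1747, 4427, 1601, 1916 and 1251. The part of leukocytes left in this gate in the Tlr7 difference was not tested.

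Tlr13, the receptor for bacterial ribosomal RNA, had the second highest level per transcript length in CD45+ cells. Its normalised counts there were 10800, 6061, 9804, 10837 and 7312 in 66cl4 and 6573, 5469, 6484, 5742 and 6145 in 67NR tumours. Animal 4 was the only 66cl4 library within the 67NR range. This gave a log2 fold change of 0.57 (SE 0.165, adjusted p = 0.0286), under the fold threshold, and 0.41 (adjusted p = 0.144) without 66cl4 animals 5 and 6. In CD45- cells the values were 7.96, 4.99, 95.7, 28.7 and 43.9 against 105, 224, 71.1, 93.7 and 64.4. The log2 fold change there was -1.58 (SE 0.682, adjusted p = 0.0631), and without 66cl4 animal 5 it was -2.36 (adjusted p = 0.00601). The interaction for Tlr13 was 2.16 (SE 0.653, adjusted p = 0.0121). Macrophage markers in the CD45- libraries summed to 157 to 1901 in 66cl4 and to 1251 to 4427 in 67NR tumours. The part of leukocytes left in that gate in these Tlr13 values was not tested.

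Myd88, the adaptor, was higher in the CD45- cells of 66cl4 tumours and was not called in CD45+ cells. Its CD45- normalised counts were 486, 452, 462, 380 and 352 in 66cl4 and 175, 221, 214, 216 and 164 in 67NR tumours. The groups did not overlap, and the log2 fold change was 1.14 (SE 0.122, adjusted p = 1.61e-06). In CD45+ cells the values were 1555, 1064, 1712, 953 and 1033 against 1058, 955, 1094, 941 and 1664, which overlapped almost wholly, with a log2 fold change of 0.16 (SE 0.194, adjusted p = 0.596). The interaction for Myd88 was -0.98 (SE 0.248, adjusted p = 0.00364).

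**Figure D2:**
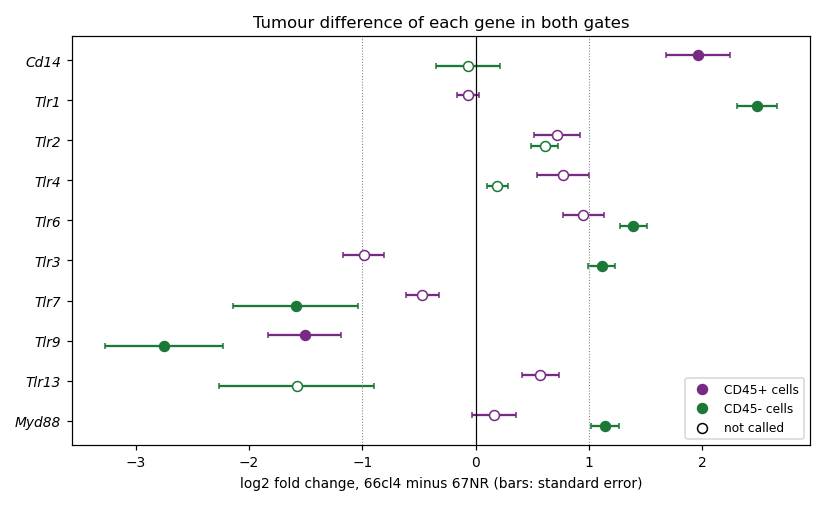
Log2 fold change of 66cl4 minus 67NR (x axis) for each of the 10 genes in CD45+ and CD45- cells, with standard errors as bars, filled points for called genes and dotted lines at the fold threshold. Tlr3 lies at -0.99 in CD45+ and at 1.11 in CD45- cells, and Tlr1 at -0.07 and 2.48.

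The CD45- libraries differed between the tumours in the levels of cell type markers. As this gate holds tumour cells of different lines, cell makeup and expression by the line cannot be told apart. In 66cl4 tumours the epithelial markers had sums of 6057 to 6843, against 120 to 379 in 67NR, and 2 of 5 were higher and 1 lower. The higher ones were Krt8, with means of 5353 and 61.6, and Krt18, with 1149 and 58.6. The lower one was Epcam, with 12.1 and 32.8. Fibroblast markers had sums of 8005 to 13726 against 14014 to 21780, with 4 of 7 lower. Among these was Dpt, with means of 35.7 and 4261. Pdgfra, with 4441 and 2953, and Col1a2, with 1195 and 940, went the other way and were not called. Both lists kept apart between the tumours in the same libraries in which Tlr1, Tlr6, Tlr3 and Myd88 did, and the part of tumour cells and fibroblasts in these differences was not tested. Macrophage markers in the CD45- libraries had sums of 157 to 1901 against 1251 to 4427, with 3 of 7 tested lower. Mast cell markers had sums of 18.6 to 65.9 against 439 to 13967, with 4 of 4 tested lower, and endothelial markers 488 to 959 against 911 to 3630, with 3 of 4 tested lower.

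Between gates, 9 of the 10 genes were higher in CD45+ cells of 66cl4 tumours, against 23.9% of 14916 genes, of which 44.4% were called in either direction and 20.5% were lower. In 67NR tumours all 10 were higher, against 20.2% of 15063 genes, of which 39.8% were called and 19.6% were lower. The libraries of the gates did not overlap for 9 of the 10 genes in 66cl4 tumours, against 61.4% of all genes, and for all 10 in 67NR tumours, against 55.5%. The exception was Tlr3 in 66cl4 tumours, with a log2 fold change of CD45+ minus CD45- of -0.75 (SE 0.185, adjusted p = 0.0029), under the fold threshold; in 67NR it was 1.35 (SE 0.12, adjusted p = 1.72e-06). The size of the gate difference ranged widely. The CD45+ mean was 247 times the CD45- mean for Tlr13, 147 times for Tlr9, 119 times for Cd14 and 107 times for Tlr7 in 66cl4 tumours, and 54.5, 57.6, 28.4 and 48.2 times in 67NR tumours. The 66cl4 ratios of Tlr13 and Tlr7 rested on animal 5, whose CD45- level was the highest, and were 409 and 187 without it. For Tlr2 the ratio was 16.5 and 15, for Tlr6 5.94 and 7.93, for Tlr4 4 and 2.62, for Myd88 2.96 and 5.77 and for Tlr1 7.06 and 40.9.

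Since both gates came from the same animals, the CD45- level was also read as a percentage of the CD45+ level of the same animal and set beside the same value of the macrophage markers. The macrophage sum gave 0.245 to 2.55% in 66cl4 animals and 1.06 to 5.68% in 67NR animals. It is no upper limit for other leukocytes. Mast cell markers of 67NR tumours summed to 439 to 13967 in CD45- and 14335 to 20520 in CD45+ cells, with 13967 and 15746 in animal 7. In 66cl4 tumours they summed to 18.6 to 65.9 and 1078 to 3069. A gene above the macrophage value is therefore not shown to come from cells other than leukocytes. Tlr13 was 0.0737 to 0.976% and 1.05 to 4.09%, below the macrophage value in all 10 animals, at 0.152 to 0.537 times that value in 66cl4 and 0.539 to 0.991 times in 67NR tumours. Tlr7 was 0.358 to 2.87% and 1.01 to 4.35%, above the macrophage value in 2 of 5 and 1 of 5 animals. Tlr9, at 0 to 1.89% and 0.947 to 3.06%, was above it in 1 of 5 animals of each tumour, at most 1.14 and 1.03 times. Cd14, at 0.419 to 1.18% and 2.41 to 5.06%, was above it in 4 of 5 animals of each tumour, at most 1.92 and 2.98 times.

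The other 6 genes had larger CD45- shares, with 1 exception by tumour. Tlr3 was 106 to 237% in animals with 66cl4 and 26.5 to 52.5% in those with 67NR tumours, Tlr4 19.8 to 34.9% and 30.4 to 52.9%, and Myd88 27 to 42.5% and 9.84 to 23.2%. Tlr6 was 12.4 to 22% and 9.45 to 16.3%, and Tlr2 4.74 to 8.92% and 5.04 to 8.76%. Each of these 5 genes was above the macrophage value in all 10 animals. Tlr1 was 11.5 to 17.3% in 66cl4 tumours, which is 6.78 to 46.9 times the macrophage value of the animal. In 67NR tumours Tlr1 was 1.63 to 4.11%, 0.724 to 1.83 times that value, and above it in 2 of 5 animals.

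**Figure D3:**
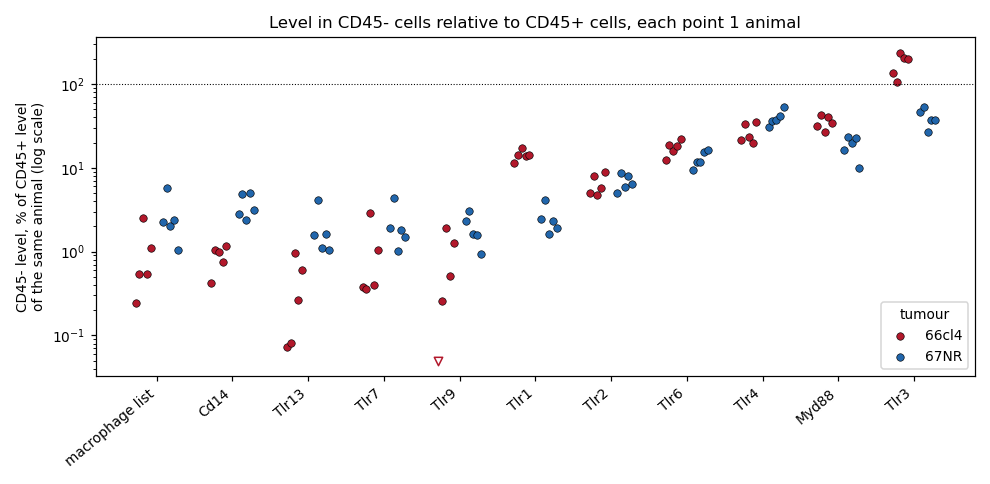
Level in CD45- cells as a percentage of the level in CD45+ cells of the same animal (log axis) for the summed macrophage markers and the 10 genes, each point 1 animal, with a dotted line at 100%. Tlr9 of 66cl4 animal 3 was at 0 and is drawn as an open triangle at the lower edge. Cd14, Tlr13, Tlr7 and Tlr9 stay at or below 5.06%, Tlr1 lies at 1.63 to 4.11% in 67NR and at 11.5 to 17.3% in 66cl4, and Tlr3 lies above 100% in all 66cl4 animals.

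To compare the genes with each other, levels were expressed as TPM, which divides the counts by transcript length and scales each library to the same total. In CD45+ cells of 66cl4 tumours, Cd14 was at 2778 ± 861 TPM (SD, n = 5), followed by Tlr13 at 208 ± 41, both above the next gene in every library. Tlr2, Tlr1, Tlr4, Tlr7, Myd88 and Tlr6 followed at 132 to 41.4 TPM, and their neighbours in this order did not keep apart in every library. Tlr3 at 13.3 ± 4.97 and Tlr9 at 8.68 ± 3.76 were lowest. In CD45+ cells of 67NR tumours Cd14 was at 697 ± 161 and Tlr13 at 139 ± 12.7, followed by Tlr1 at 115, Tlr7 at 90.3, Tlr2 at 77.9 and Tlr4 at 50.7 TPM. Myd88 had 43.6 TPM, and Tlr3, Tlr9 and Tlr6, at 25.5, 24.7 and 20.8, were not separated. In CD45- cells Cd14 and Tlr4 led in both tumours, at 24.1 and 22.5 TPM in 66cl4 and 24.8 and 19.5 in 67NR, without keeping apart in every library. Tlr3 followed at 21.7 and 9.85 TPM, in 66cl4 without lying below Tlr4 in every library, and Tlr9 was last at 0.0595 and 0.42 TPM.

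The other genes of the pathway were read from a list of 53 genes in 7 groups. In CD45+ cells 51 were tested, of which 10 were higher and 5 lower in 66cl4, against 5.01% and 6.82% of all genes, with a median log2 fold change of 0.17 (0.01 over all genes). In CD45- cells 46 were tested, of which 8 were higher and 11 lower, against 13.2% and 18.9%, with a median of -0.24 (-0.01 over all genes). The study had selected Irak2, Lbp, Tlr5, Cd36, Tnip3, Ptgs2 and Cxcl2 of this list, and Cd14 and Tlr6, on these same libraries, so their direction in CD45+ cells is not independent evidence.

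The 4 other receptors of the family moved both ways in CD45+ cells, where all were tested. Tlr5, the flagellin receptor, was higher with a log2 fold change of 1.01 (SE 0.26, adjusted p = 0.0165), and Tlr11 and Tlr12, which bind profilin of protozoa, were lower at -1.05 (SE 0.289, adjusted p = 0.0234) and -1.60 (SE 0.331, adjusted p = 0.00541). Tlr12 had means of 22.7 and 69.6 normalised counts. Tlr8, with means of 3348 and 3787, was not called (-0.17, SE 0.124, adjusted p = 0.371). In CD45- cells Tlr5 was at -0.24 (adjusted p = 0.55), Tlr8 at -1.91 (SE 0.778, adjusted p = 0.0502), and Tlr11 and Tlr12 were under the filter.

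Among 8 receptor partners and chaperones, 2 were higher and none lower in CD45+ cells. Cd36, a scavenger receptor that works with Tlr2 and Tlr6, had means of 5618 and 993 normalised counts and a log2 fold change of 2.51 (SE 0.279, adjusted p = 0.000197). Lbp, the serum protein that passes lipopolysaccharide to Cd14, had 43.5 and 15.1 (log2 fold change 1.56, SE 0.443, adjusted p = 0.026). Epithelial markers were also higher in these CD45+ libraries, with sums of 623 to 945 in 66cl4 against 261 to 320 in 67NR. Of 4 tested markers 2 were called, Krt8 with means of 296 and 10.4 and Krt18 with 58.4 and 6.88. The largest mean in the sum was that of Cdh1, with 394 and 227, which was not called. Cdh1 was lower in CD45- cells, with 20.8 and 32.9, so the sum does not measure epithelial cells alone. The part of epithelial cells in the CD45+ level of Lbp was not tested. In CD45- cells Lbp was higher at 3.55 (SE 0.421, adjusted p = 3.37e-05) with means of 1112 and 96.4, and Cd36 was lower at -3.22 (SE 0.634, adjusted p = 0.00148). Together 1 partner was higher and 3 were lower there. Unc93b1, the chaperone that brings the endosomal receptors to their place, was among the 3 with -1.61 (SE 0.478, adjusted p = 0.0109), and is named after its value was seen.

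No other adaptor was called in CD45+ cells among 3 tested. In CD45- cells 1 of 3 was, Tirap, which links Myd88 to Tlr2 and Tlr4. Its log2 fold change was 1.30 (SE 0.095, adjusted p = 3.29e-08), with means of 577 and 239, and it too is named after its value was seen. Of 14 kinases and ubiquitin ligases, 2 were higher in CD45+ cells and none lower. These were Irak2, a kinase recruited through Myd88, with 1.24 (SE 0.184, adjusted p = 0.000843), and Ikbke, a kinase of interferon regulatory factors, with 1.21 (SE 0.154, adjusted p = 0.000356). In CD45- cells 2 were higher and 1 lower, and Irak2 was again higher at 2.01 (SE 0.122, adjusted p = 4.6e-09), whereas Ikbke was at 0.01 (adjusted p = 0.969).

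Of 6 transcription factors, Rel, an NF-kB subunit, was higher in CD45+ cells with a log2 fold change of 1.01 (SE 0.186, adjusted p = 0.00284). Irf7, which drives interferon genes downstream of Tlr7 and Tlr9, was lower at -1.75 (SE 0.201, adjusted p = 0.000203), with means of 2590 and 8870. In CD45- cells Rel was at 1.05 (SE 0.125, adjusted p = 4.9e-06) and Irf7 at -1.68 (SE 0.281, adjusted p = 0.000274), and in all 1 factor was higher and 2 were lower. Among 7 inhibitors, Tnip3, which restrains NF-kB, was the only one called in CD45+ cells, higher at 1.66 (SE 0.275, adjusted p = 0.00169). In CD45- cells it was under the filter, and 2 of 6 inhibitors tested were higher and 1 lower.

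The 10 inducible targets moved both ways. In CD45+ cells 3 of 9 tested were higher, including Cxcl2, a neutrophil chemokine, with 1.91 (SE 0.412, adjusted p = 0.00778), and Ptgs2, the inducible cyclooxygenase, with 1.70 (SE 0.363, adjusted p = 0.00713). The third was Il1b at 1.25 (SE 0.32, adjusted p = 0.0162), named after its value was seen. Ccl5 and Cxcl10, chemokines of T cells that interferon also induces, were lower at -2.34 (SE 0.328, adjusted p = 0.000725) and -1.46 (SE 0.168, adjusted p = 0.000204). In CD45- cells 1 of 7 tested was higher, Ptgs2 with 3.13 (SE 0.214, adjusted p = 3.89e-08), and 4 were lower, among them Ccl5 at -3.99 (SE 0.328, adjusted p = 8.47e-07) and Cxcl10 at -3.06 (SE 0.228, adjusted p = 1.31e-07). Cxcl2 was at -0.60 (adjusted p = 0.576) in that gate. The neutrophil marker sums given above moved with the tumour in the same CD45+ libraries. So did NK cell markers, with sums of 761 to 2534 in 66cl4 against 1300 to 19051 in 67NR and 4 of 4 tested markers lower, and mast cell markers, with 1078 to 3069 against 14335 to 20520 and 4 of 5 lower. The part of these cells in the counts was not tested.

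**Figure D4:**
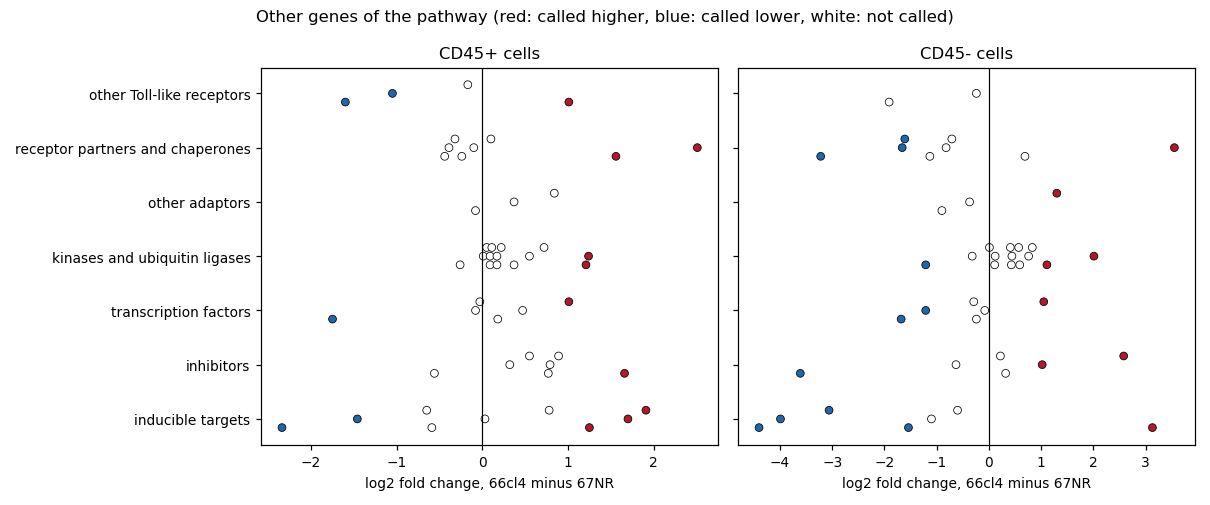
Log2 fold change of 66cl4 minus 67NR (x axis) for the tested genes of 7 groups of the pathway (rows) in CD45+ and CD45- cells, each point 1 gene, red when called higher, blue when called lower and white when not called. Points are set at 3 heights within a row only to keep them apart. In CD45+ cells 10 genes are red and 5 blue, and in CD45- cells 8 are red and 11 blue.

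The genes with the most similar pattern were found by Pearson's r of log2 normalised counts plus 1 over the 20 libraries, among 12099 genes. Since the libraries form 4 groups that differ in most genes, a high r mainly records the group levels, and it is given as a description. The closest genes were Ccr1 (r = 0.998) and Igsf6 (0.996) for Tlr13, Maf and Ctss (both 0.997) for Tlr7, and Cyp27a1 (0.992) and Slamf7 (0.991) for Tlr9. For Cd14 they were Mxd1 and A530064D06Rik (both 0.993), for Tlr2 Pim1 (0.993) and Snap23 (0.992), and for Tlr1 Il10rb (0.992) and Pla2g7 (0.991). Tlr6 was closest to Gla (0.989) and Soat1 (0.988), Myd88 to Tmem106a (0.988) and Rtf2 (0.987), and Tlr4 to Tgoln1 (0.98) and Vamp4 (0.978). Tlr3 had the least close neighbours, Tmem176a (0.892) and Sass6 (0.861).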

How the data were processed

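Poly(A) RNA of sorted CD45+ and CD45- tumour cells was sequenced. After trimming, the authors ran Salmon 1.3.0 on the transcripts, collapsed its estimates to genes using tximport, and deposited estimated counts with no normalisation. The sources name GRCh38, a human build, although the identifiers are those of mouse genes, so the mouse build used is not given in the sources used here and coordinates here are those of the reference sequences. Symbols were matched for 51492 of 52783 identifiers. Estimated counts were rounded (largest step 0.5).

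Groups were compared in R 4.3.3 with edgeR 4.0.16 (TMM, filter with minimum count 10 and minimum total 15, robust quasi-likelihood fit, Benjamini-Hochberg adjustment), with only the libraries compared in a fit and all 20 for the interaction. The script was tested on simulated data. Levels used size factors of DESeq2 1.42.0 and two-sided exact permutation tests, unadjusted. TPM used the longest GENCODE transcript per gene. Of the pathway list, up to 4 called genes per group with the largest change between the CD45+ groups were named, and per gene the 2 with the most similar pattern. The members and lists were chosen with earlier results of these data known. As alternatives served the Wald test of DESeq2, factors by RLE, a fit without filter, a filter of 10 counts in 5 libraries, a fit over all 20 libraries, the replicate block, leaving out libraries, CPM or TPM levels and, added after first values were seen, total counts as library sizes.

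Both gates of a tumour were sorted from 1 animal, so equal numbers mark a pair. Deviations from the mean of the group correlated within such pairs at 0.0245 to 0.124 (66cl4) and -0.00142 to 0.303 (67NR). No replicate pair was alike within sampling noise. Plots were made in Python 3.11.15 using matplotlib 3.10.9.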

Additional observations from a re-analysis of the deposited data

Results flagged for a closer look

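In each of 40 groups of 5 libraries, 1 for each gene, tumour and gate, the highest or lowest library was compared with the rest by Dixon's criterion, which chance meets in about 1 in 20 groups, here 2. It was met in 5 groups. Tlr4 in CD45- cells of 66cl4 animal 4 had 844 normalised counts, with 958 to 997 in the other 4 animals. Tlr7 in CD45+ cells of 66cl4 animal 6 had 3724, with 2323 to 2547 in the others. In CD45- cells of 67NR animal 4, Tlr9 had 27.8 (others 10.5 to 15.3) and Tlr13 had 224 (others 64.4 to 105). The macrophage marker sum of that same library, 4427, was the highest of its group as well (others 1251 to 1916). Myd88 in CD45+ cells of 67NR animal 7 had 1664, with 941 to 1094 in the others.

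The tumour effect differed between the gates for 5 genes in the interaction test of edgeR. It was lower in CD45+ than in CD45- cells for Tlr1 (-2.54 on the log2 scale), Tlr3 (-2.09) and Myd88 (-0.98), and higher for Tlr13 (2.16) and Cd14 (2.05). As a percentage of the CD45+ level, CD45- Tlr13 was above the macrophage value in 0 of 5 animals of each tumour. The macrophage markers had a median interaction of 1.33 (0.03 over all genes), with 2 of 8 called higher. The part of leukocytes left in the CD45- libraries in the Tlr13 interaction was not tested.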

How the results depend on the processing

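Calls among the 10 genes held best between gates, with 9 in 66cl4 and 10 in 67NR tumours under every alternative run. Between CD45+ cells 2 genes were called, 1 without 66cl4 animals 5 and 6 (Cd14) and 2 to 4 without single libraries, with 4 when 66cl4 animal 4 or 67NR animal 1 was left out. The number of genes with an unadjusted exact permutation p under 0.05 in CD45+ cells was 8, 5 without 66cl4 animals 5 and 6, and 6 to 8 without single libraries. The share of all genes under 0.05 in this test was not computed. These counts therefore show only how far the test depends on the libraries used. In CD45- cells 5 to 7 genes were called without single libraries (6 in the reported fit), and 5 to 6 in the interaction (5 reported). Tlr7 in CD45- cells was not called without the filter (adjusted p = 0.0781), and Tlr13 there was called by DESeq2 (0.0468) and with all 20 libraries in the fit (0.00939). Cd14 in CD45- cells, at -0.07, was -0.34 to 0.09 without single libraries and changed sign with the replicate block (0.08), without 66cl4 animal 3 (0.09) or 4 (0.00) and without 67NR animal 6 (0.08). The Tlr2 interaction of 0.13 was -0.17 to 0.17 without single libraries, with -0.17 when the CD45+ library of 66cl4 animal 5 was left out. The cause of these changes was not tested.

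The labels link libraries of different tumours only by the replicate number (correlations 0.000441 to 0.0705 in CD45+ and -0.124 to 0.0165 in CD45- cells). Whether equal numbers shared a day or batch is not stated. With that number as a block, 3 genes were called in CD45+ cells (Tlr3 at -1.08 added) and 5 in CD45- cells (Tlr7 at -1.53, adjusted p = 0.149, not called). With the animal as a block, 9 and 10 genes were called between gates and 6 in the interaction (Tlr4 added, adjusted p = 0.0287). The exact permutation test between gates without 66cl4 animals 5 and 6 cannot go below p = 0.1 and was not used. Scaling by total counts shifted the median of all genes by at most 0.10. At the depth of these libraries, Tlr9 in CD45- cells of 66cl4 tumours was too scarce for a precise fold change.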
